A study of Homo sapiens with 6 samples.

Results

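The enzymes described here make serine and pass its carbon through folate. They are PHGDH, PSAT1, PSPH, SHMT1, SHMT2, MTHFD1, MTHFD1L, MTHFD2, ALDH1L1 and ALDH1L2, which were chosen by name and are 10 of the 30949 genes in the deposited table. Polyadenylated RNA was sequenced from wild-type human astrocytes derived from WTC11, an established induced pluripotent stem cell line, so that both groups come from 1 parental line. The cells grew as floating aggregates in alginate capsules in neural medium. Vehicle was given to 3 cultures, and ITC, a mixture of interleukin 1 alpha, TNF alpha and complement C1q, was given to 3 others for 48 hours. Capsules were made in several batches and every batch was split over both treatments, but no label ties a replicate number to a batch.

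Serine is made from the glycolytic intermediate 3-phosphoglycerate. PHGDH oxidises it, PSAT1 transfers an amino group onto the product, and PSPH removes the phosphate. SHMT1 in the cytosol and SHMT2 in mitochondria then split serine into glycine and a carbon unit carried on tetrahydrofolate. In mitochondria MTHFD2 oxidises that unit and MTHFD1L, a ligase, releases it as formate. The trifunctional MTHFD1 handles the unit in the cytosol, and ALDH1L1 (cytosolic) and ALDH1L2 (mitochondrial) burn it to carbon dioxide. In brain, astrocytes are the main makers of serine and hand it to neurons, and ALDH1L1 is a widely used astrocyte marker.

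All 10 genes passed the filter on low counts. After ITC the serine synthesis genes PHGDH, PSAT1 and PSPH and the cytosolic folate oxidiser ALDH1L1 fell, and SHMT1, MTHFD1L and MTHFD2 rose. SHMT2, MTHFD1 and ALDH1L2 did not pass the test. The call of SHMT1 was lost under 9 of the 17 alternative settings, whereas the other 6 calls were kept under all 17. PHGDH fell the most, 11.9-fold, and MTHFD2 rose the most, 2.03-fold. The 3 rises and 4 falls stand beside a wide response: edgeR's quasi-likelihood test called 39.4% of the 16756 genes tested, 20.4% higher and 19% lower in ITC at an adjusted p under 0.05. With TMM scaling 51.9% of calls were higher in ITC. Upper quartile scaling gave 2662 genes higher and 4059 lower (39.6% higher, median log2 fold change of all genes -0.16), and library size only gave 2282 and 4804 (32.2% and -0.24). The median log2 fold change was -0.10 over the 10 enzymes and -0.01 over all genes tested. The groups did not overlap for 8 of the 10 enzymes, and did not for 50.1% of all genes tested.

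**Figure D1:**
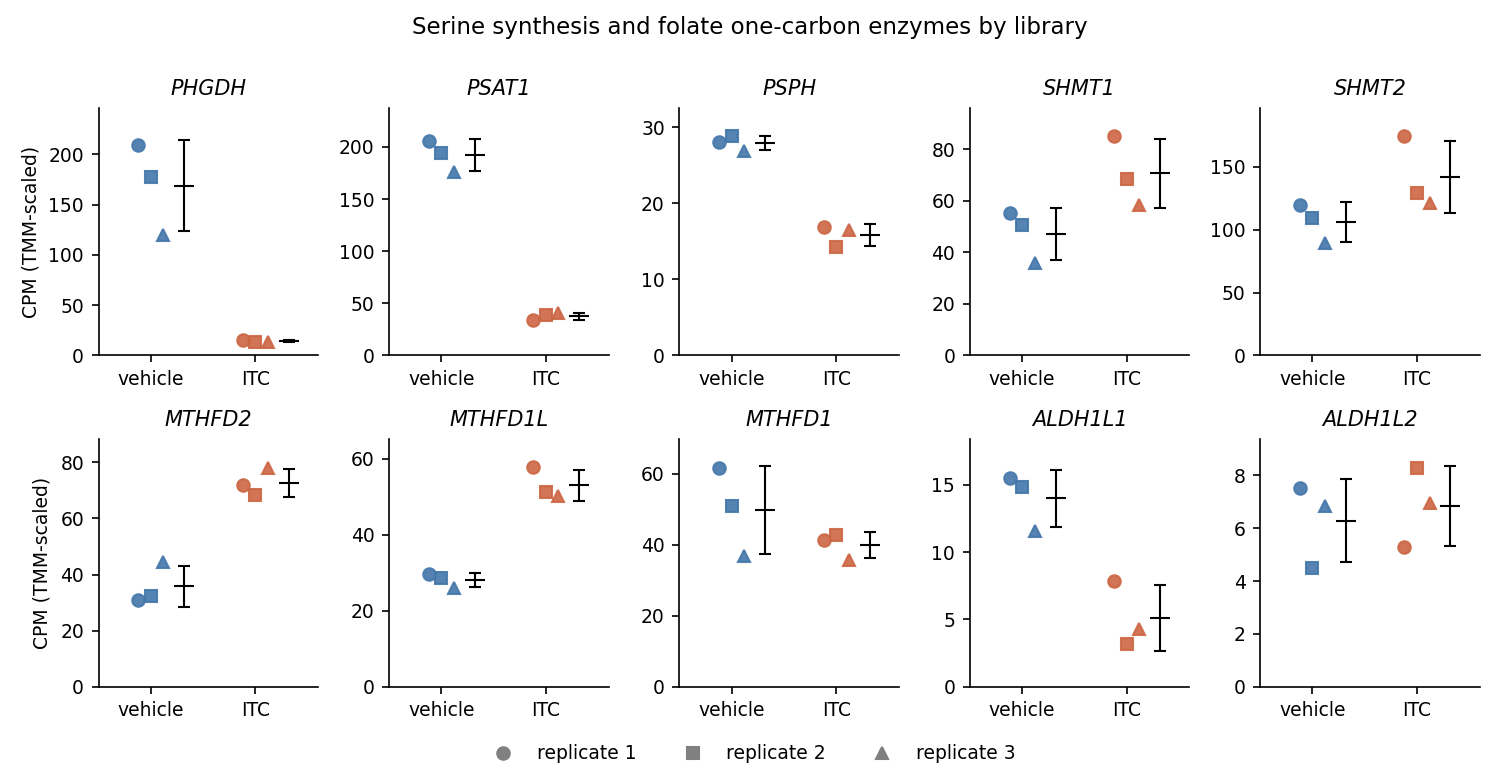
CPM, the read counts scaled to a common library size by TMM (y axis from 0), of each enzyme in the 3 vehicle and 3 ITC libraries. Points are libraries with the replicate number as the marker, and the bar beside them is the mean with its SD; PHGDH lay at 120 to 209 CPM in vehicle and at 13.5 to 15.2 CPM in ITC, while the MTHFD1 and ALDH1L2 groups overlapped.

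Sequence upstream of the transcription start was read for the genes with an entry in the RefSeq promoter table (GRCh38.p14), namely PHGDH, PSAT1, SHMT1, MTHFD1, MTHFD1L, MTHFD2 and ALDH1L1. The 250 bases before each start were searched on both strands. The starts are those of the entries. For PHGDH, MTHFD1, MTHFD1L and ALDH1L1 they lie within the annotated span of the gene, and so do the bases searched. This holds for the MTHFD1L stretch printed below. The CCAAT box, spelled CCAAT, was found for 6 of these 7 genes, all but ALDH1L1, and for 40.9% of the 11557 tested genes that have an entry. It was searched for after the promoters had been read. PSAT1, which fell, and MTHFD2, MTHFD1L and SHMT1, which rose, are shown because they hold the box on both sides of the response, within stretches that carry no annotated untranslated region. The stretches are chr9:78296875-78297124 on the plus strand for PSAT1, chr2:74198365-74198561 on the plus strand for MTHFD2, chr6:150866083-150866332 on the plus strand for MTHFD1L and chr17:18363564-18363800 on the minus strand for SHMT1. Each is written from 5′ to 3′ on the strand of its gene, with CCAAT, or ATTGG where the box lies on the other strand, in capitals.
PSAT1: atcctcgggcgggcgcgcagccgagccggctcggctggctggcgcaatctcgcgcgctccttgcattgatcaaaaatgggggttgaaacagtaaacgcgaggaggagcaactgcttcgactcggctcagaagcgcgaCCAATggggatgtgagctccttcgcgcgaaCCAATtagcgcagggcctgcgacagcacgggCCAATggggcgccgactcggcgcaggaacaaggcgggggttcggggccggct
MTHFD2: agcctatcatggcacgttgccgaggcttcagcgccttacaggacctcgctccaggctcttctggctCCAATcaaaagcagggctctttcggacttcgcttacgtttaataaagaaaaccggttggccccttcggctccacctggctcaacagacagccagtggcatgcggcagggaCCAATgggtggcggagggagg
MTHFD1L: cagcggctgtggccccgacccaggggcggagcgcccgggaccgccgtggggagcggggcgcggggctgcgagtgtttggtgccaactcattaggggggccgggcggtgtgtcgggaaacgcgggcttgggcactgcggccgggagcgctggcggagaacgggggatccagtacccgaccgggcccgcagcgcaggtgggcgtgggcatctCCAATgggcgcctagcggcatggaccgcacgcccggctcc
SHMT1: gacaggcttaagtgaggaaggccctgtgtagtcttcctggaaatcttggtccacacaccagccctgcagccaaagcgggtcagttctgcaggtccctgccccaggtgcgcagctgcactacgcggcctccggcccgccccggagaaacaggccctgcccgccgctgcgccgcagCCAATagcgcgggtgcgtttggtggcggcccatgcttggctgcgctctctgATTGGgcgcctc

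In PSAT1 the boxes begin 113, 83 and 52 bases before the start, and in MTHFD2 they begin 184 and 74 bases before it. SHMT1 has 1 box on each strand, beginning 76 and 25 bases before the start. The amino acid response element TGATGNAA was found for MTHFD1L alone among the 7 genes and for 2.46% of tested genes with an entry. The E-box CACGTG was found for MTHFD1 and MTHFD1L and for 10.9% of those genes. MTHFD1L has several entries with different starts, and its matches of these 2 elements lie in other entries, outside the stretch printed above. The antioxidant response element TGACNNNGC was found for 0 of the 7 and for 15.8% of those genes. None of these matches overlapped a match of another motif. A match describes letters in this window and says nothing about binding.

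PHGDH catalyses the first and committed step of serine synthesis. Its gene (ENSG00000092621) lies on the plus strand of chromosome 1 at 119648411 to 119744226 in the build of the files, GRCh38. In vehicle it had 208.9, 177.8 and 120.1 CPM (counts scaled to a common library size) in replicates 1, 2 and 3, and in ITC it had 15.2, 13.7 and 13.5 CPM. The lowest vehicle library thus stood far above the highest ITC library, and the vehicle libraries spread more widely than the ITC libraries. The log2 fold change of ITC over vehicle was -3.58 ± 0.21 (SE; adjusted p = 6.59e-09, edgeR's quasi-likelihood test). Over all 16756 genes tested, 212 had a lower log2 fold change. Among the 2108 of them with a vehicle mean of at least 100 CPM, 9 had a lower one. That cut uses only the vehicle group, in which PHGDH was high. In these bulk libraries, fewer cells of a type and less RNA per cell cannot be told apart.

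PSAT1 (ENSG00000135069), the aminotransferase of the second step, lies on the plus strand of chromosome 9 at 78297143 to 78330093. It had 206.0, 194.6 and 175.7 CPM in vehicle and 33.7, 38.5 and 40.5 CPM in ITC. The drop was 5.11-fold, with a log2 fold change of -2.35 ± 0.16 (SE; adjusted p = 2.69e-08, edgeR). A lower value was found for 525 of all genes tested, and for 28 of the same genes abundant in vehicle. The groups were far apart and each was tight, with vehicle replicate 3 the lowest of its group as for PHGDH.

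PSPH (ENSG00000146733), the phosphatase of the last step, lies on the minus strand of chromosome 7 at 56011051 to 56051604. It had 28.1, 28.8 and 27.0 CPM in vehicle and 16.9, 14.2 and 16.5 CPM in ITC. Both groups were tight and did not overlap, and the log2 fold change was -0.82 ± 0.16 (SE; adjusted p = 0.000818, edgeR). All 3 enzymes of the route therefore fell, PHGDH by the largest amount and PSPH by the smallest. These calls were kept when any single library was left out and under each scaling tried. On the log2(FPKM + 1) scale, which shrinks low values, the change of PHGDH was -2.90.

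SHMT1 (ENSG00000176974), the cytosolic serine hydroxymethyltransferase, lies on the minus strand of chromosome 17 at 18327860 to 18363563. It had 55.2, 50.5 and 35.8 CPM in vehicle and 84.9, 68.6 and 58.5 CPM in ITC. The groups did not overlap, but the lowest ITC library was only 1.06 times the highest vehicle library. The log2 fold change was 0.58 ± 0.19 (SE; adjusted p = 0.0242, edgeR). The call was lost without vehicle replicate 2 (adjusted p = 0.0681), vehicle replicate 3 (0.114), ITC replicate 1 (0.106) or ITC replicate 2 (0.0534), all by edgeR. It was also lost with upper quartile scaling (adjusted p = 0.0682) and with library size only (0.137).

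SHMT2 (ENSG00000182199), the mitochondrial counterpart, lies on the plus strand of chromosome 12 at 57229327 to 57234935. It had 119.9, 109.1 and 89.1 CPM in vehicle and 174.9, 129.2 and 121.5 CPM in ITC. The CPM groups just failed to overlap, the deposited FPKM values of the groups overlapped, and the difference did not pass the test (log2 fold change 0.42 ± 0.18 SE; adjusted p = 0.0775, edgeR). It passed without ITC replicate 3 (0.54; adjusted p = 0.0411) and with a block by replicate number (0.41; 0.00595), both by edgeR. Both hydroxymethyltransferases thus had a higher mean in ITC, that of SHMT2 without passing the test.

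MTHFD2 (ENSG00000065911), the mitochondrial methylenetetrahydrofolate dehydrogenase and cyclohydrolase, lies on the plus strand of chromosome 2 at 74198562 to 74217565. It had 31.0, 32.2 and 44.3 CPM in vehicle and 71.9, 68.2 and 77.9 CPM in ITC. Every ITC library was at least 1.54 times every vehicle library, and the log2 fold change was 1.02 ± 0.17 (SE; adjusted p = 0.000219, edgeR). Replicate 3 was the highest library of each group, the only enzyme of the 10 for which vehicle replicate 3 led its group.

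MTHFD1L (ENSG00000120254), the mitochondrial ligase that releases formate, lies on the plus strand of chromosome 6 at 150865549 to 151101887. It had 29.6, 28.7 and 26.1 CPM in vehicle and 57.8, 51.3 and 50.2 CPM in ITC. The spread within each group was small beside the gap between them, and the log2 fold change was 0.92 ± 0.15 (SE; adjusted p = 0.000183, edgeR). Both mitochondrial genes kept their calls without any single library and under each scaling.

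MTHFD1 (ENSG00000100714), which joins the dehydrogenase, cyclohydrolase and ligase activities in the cytosol, lies on the plus strand of chromosome 14 at 64388031 to 64463457. It had 61.5, 51.0 and 36.9 CPM in vehicle and 41.3, 42.8 and 35.8 CPM in ITC. The groups overlapped, because vehicle replicate 3 lay among the ITC libraries, and the log2 fold change of -0.32 ± 0.18 (SE) did not pass the test (adjusted p = 0.193, edgeR). Without vehicle replicate 3 it did pass, at -0.54 (adjusted p = 0.0131), and also with library size only, at -0.55 (adjusted p = 0.0265).

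ALDH1L1 (ENSG00000144908), the cytosolic formyltetrahydrofolate dehydrogenase, lies on the minus strand of chromosome 3 at 126103562 to 126197994. It had 15.5, 14.9 and 11.6 CPM in vehicle and 7.89, 3.17 and 4.31 CPM in ITC. All ITC libraries were below all vehicle libraries, although ITC replicate 1 was 2.49 times ITC replicate 2. The log2 fold change was -1.45 ± 0.28 (SE; adjusted p = 0.00091, edgeR). On the log2(FPKM + 1) scale this low gene changed by -0.57.

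ALDH1L2 (ENSG00000136010), the mitochondrial form, lies on the minus strand of chromosome 12 at 105019784 to 105084577. It had 7.52, 4.51 and 6.84 CPM in vehicle and 5.28, 8.27 and 6.96 CPM in ITC. The groups overlapped throughout and the test found no difference (log2 fold change 0.12 ± 0.25 SE; adjusted p = 0.742, edgeR). With 86 to 221 counts per library it was the most thinly counted enzyme in vehicle, and its sign turned under other scalings.

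**Figure D2:**
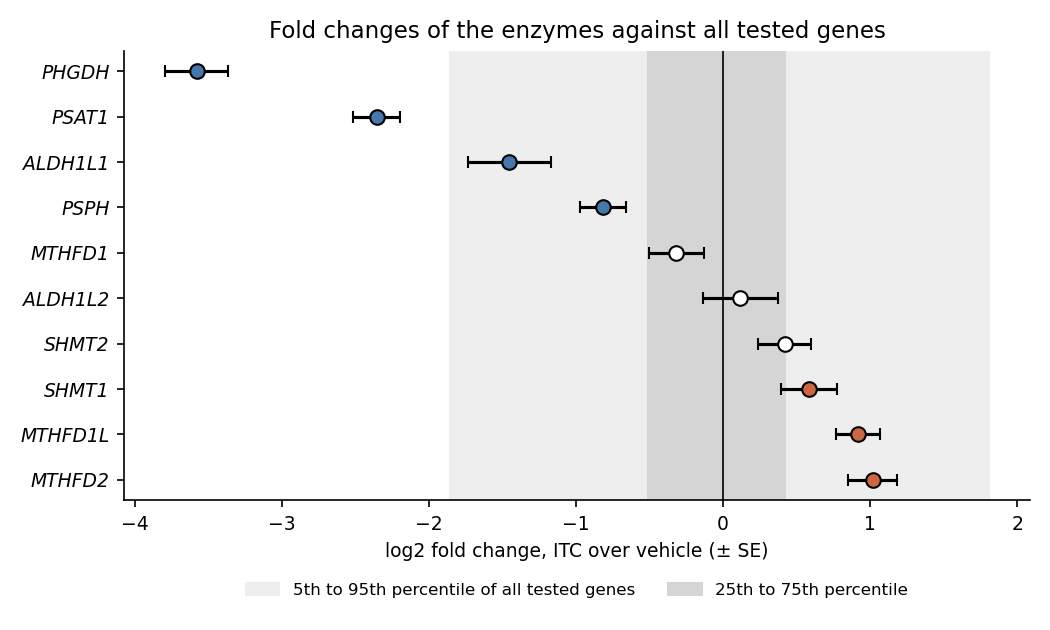
Log2 fold change of ITC over vehicle (x axis) with its SE for each enzyme, filled blue where called lower, filled orange where called higher and white where not called by edgeR. The shaded bands hold the middle of all 16756 genes tested; PHGDH at -3.58 and PSAT1 at -2.35 lay below the 5th percentile of -1.86, and MTHFD2 at 1.02 lay under the 95th percentile of 1.81.

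The authors' deposited table, whose DESeq2 fold changes are given as vehicle over ITC, has the same directions for all 10 enzymes. Written as ITC over vehicle, the authors' deposited table gives a log2 fold change of -3.58 for PHGDH, -2.35 for PSAT1 and 1.03 for MTHFD2. For SHMT2 the authors' deposited table gives 0.42 with an adjusted p of 0.0855.

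The level of transcript per unit length changed order between the groups. In vehicle, PSAT1 was the most abundant, at 89.8 ± 9.11 FPKM (SD, n = 3; fragments per kilobase of exon, scaled to an adjusted library size, as deposited by the authors). SHMT2 at 22.4 ± 3.78 FPKM and PHGDH at 18.8 ± 5.38 FPKM came next, and these neighbours did not separate in every library. PSPH followed at 10.4 ± 0.52 FPKM, below PHGDH and above MTHFD2 in every library.

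Farther down the vehicle order stood MTHFD2 at 7.50 ± 1.38 FPKM, SHMT1 at 6.64 ± 1.55 FPKM, MTHFD1L at 5.73 ± 0.50 FPKM and MTHFD1 at 5.45 ± 1.46 FPKM. None of these separated from the next of them in every library. The formyltetrahydrofolate dehydrogenases were last, ALDH1L1 at 1.05 ± 0.18 FPKM and ALDH1L2 at 0.76 ± 0.19 FPKM, without separating from each other.

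In ITC, SHMT2 led at 30.3 ± 6.70 FPKM. PSAT1 at 17.7 ± 1.37 FPKM and MTHFD2 at 15.4 ± 0.92 FPKM were next and did not separate in every library, nor did MTHFD1L at 10.9 ± 1.03 FPKM and SHMT1 at 10.02 ± 2.07 FPKM. The serine synthesis genes had moved down the order, with PSPH at 5.92 ± 0.57 FPKM sixth and PHGDH at 1.58 ± 0.13 FPKM eighth. MTHFD1 stood between them at 4.39 ± 0.45 FPKM. ALDH1L2 at 0.83 ± 0.17 FPKM was now above ALDH1L1 at 0.39 ± 0.19 FPKM in every library. This order depends on the listed lengths, 8507 bases for ALDH1L2 and 13712 for ALDH1L1. In ITC replicate 1, ALDH1L1 had more counts than ALDH1L2, 130 against 87. The FPKM of PHGDH uses a listed length of 9217 bases, the union of all its annotated exons, so its level is low for a given count compared with PSAT1, whose listed length is 2188 bases.

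Ratios within a library compare the mitochondrial with the cytosolic enzyme and do not depend on scaling between libraries. The FPKM ratio of MTHFD2 to MTHFD1 was 0.97, 1.22 and 2.31 in vehicle and 3.36, 3.07 and 4.19 in ITC. The ratio of MTHFD1L to MTHFD1 was 0.90, 1.05 and 1.32 in vehicle and 2.61, 2.24 and 2.62 in ITC. Both ratios were higher in all 3 ITC libraries than in any vehicle library. On the log2 scale of the counts the mean differences were 1.33 for MTHFD2 over MTHFD1 and 1.21 for MTHFD1L over MTHFD1.

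The ratio of ALDH1L2 to ALDH1L1 was 0.78, 0.49 and 0.95 in vehicle and 1.08, 4.21 and 2.61 in ITC, a log2 difference of 1.67 with a wide spread in ITC. The ratio of SHMT2 to SHMT1 was 3.27, 3.25 and 3.74 in vehicle and 3.10, 2.84 and 3.13 in ITC, a log2 difference of -0.18. It was thus a little lower in ITC, and the groups did not overlap for any of the 4 ratios. Each had an exact two-sided permutation p of 0.1, adjusted over the 4 ratios to 0.1, which is the smallest that 3 against 3 libraries allow.

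**Figure D3:**
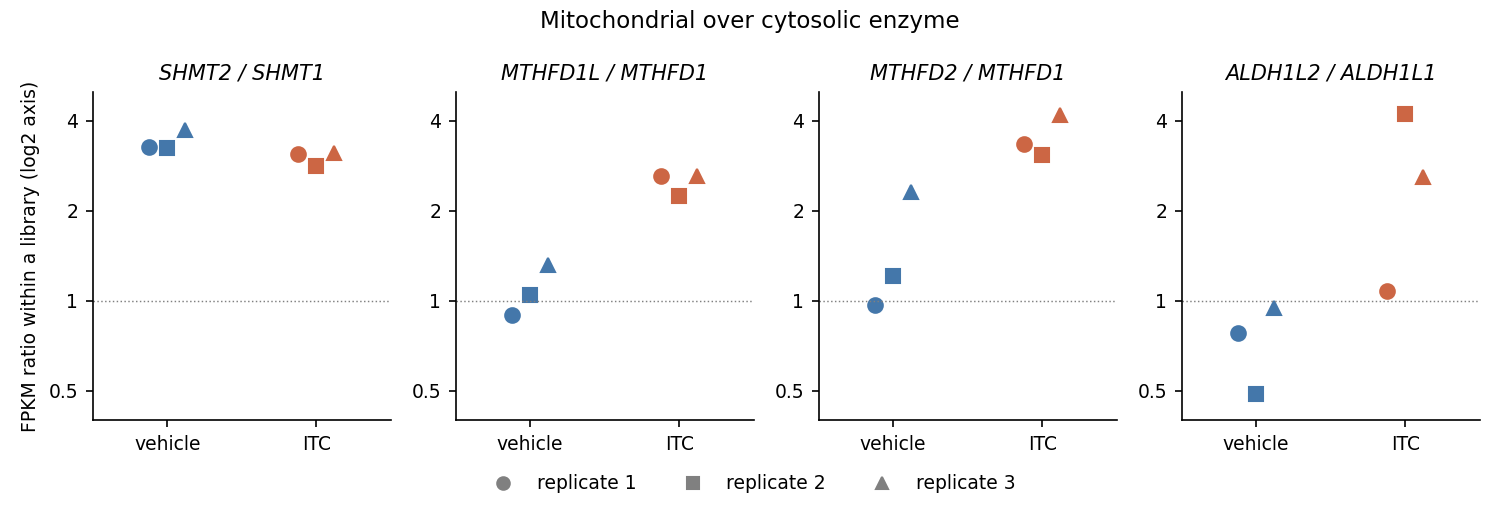
FPKM ratio of the mitochondrial to the cytosolic enzyme within each library, on a log2 axis, with the dotted line at equal levels and the replicate number as the marker. MTHFD2 over MTHFD1 lay between 0.97 and 2.31 in vehicle and between 3.07 and 4.19 in ITC, while SHMT2 over SHMT1 stayed between 2.84 and 3.74 in all 6 libraries.

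Among the vehicle libraries the enzymes shared a pattern. Vehicle replicate 1 was the highest of its group for 8 of the 10 enzymes and for 37.4% of all genes tested, and vehicle replicate 3 was the lowest for 8 of 10 and for 40.4% of all genes tested. ITC replicate 1 was the highest of its group for 6 enzymes and for 39.7% of all genes. Vehicle replicate 3 was the deepest library, at 29941685 counts against 17398921 to 20203844 in the other libraries, and had the largest share of counts from the mitochondrial genome in vehicle, 5.03% against 3.65% and 3.89%. In ITC that share was 2.64% to 3.43%. The part of depth and of this share in the enzymes' levels was not tested.

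Some exon bases of 6 of the 10 enzymes also belong to other genes in GENCODE 29, and the use of strand in counting is not stated in any label or header. The share was 33.2% for MTHFD2, mostly with SLC4A5 on the opposite strand, which had 4 to 12 counts per library against 614 to 1431 for MTHFD2. SHMT1 shares 196 bases with SMCR8, a gene on the opposite strand, and 3.69% of its exon bases in all. SMCR8 had 694 to 1165 counts per library against 964 to 1399 for SHMT1 and rose by 0.81 (log2; adjusted p = 0.00122, edgeR). For MTHFD1 the share was 11.04%, for SHMT2 9.51%, for ALDH1L1 3.53% and for ALDH1L2 1.70%. ZBTB25 shares 178 bases with MTHFD1 on the opposite strand and had 195 to 370 counts per library against 606 to 1326 for MTHFD1. It did not pass the test (log2 fold change -0.09; adjusted p = 0.731, edgeR). C12orf45, which shares 145 bases with ALDH1L2 on the opposite strand, had 274 to 919 counts per library against 86 to 221 for ALDH1L2 and fell by 0.82 on the log2 scale (adjusted p = 0.000679, edgeR). NDUFA4L2, which shares 33 bases with SHMT2, had 14 to 71 counts against 2058 to 2882 and rose by 1.40 (adjusted p = 0.0345). The part of these genes in the enzymes' counts was not tested. PHGDH, PSAT1, PSPH and MTHFD1L share 0 bases. How reads that fit near-identical copies were assigned is also not given. The pseudogene MTHFD1P1 had at most 5 counts in a library.

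Around these enzymes, 13 other genes of folate handling and uptake were tested, of which 2 rose and 5 fell, with a median log2 fold change of -0.45. GGH, which trims the glutamate tail of folates, fell from 71.1 ± 12.6 to 27.1 ± 3.19 CPM (SD, n = 3; log2 fold change -1.39, adjusted p = 1.32e-05, edgeR), and the reduced folate carrier SLC19A1 fell from 27.8 ± 1.07 to 15.6 ± 2.22 CPM. MTHFD2L, the mitochondrial paralog of MTHFD2, rose from 12.8 ± 2.99 to 28.3 ± 5.81 CPM (log2 fold change 1.13, adjusted p = 0.00047, edgeR). MTHFD2L thus moved the same way as MTHFD2 and MTHFD1L. TYMS, the thymidylate synthase, was at -0.39 (log2; adjusted p = 0.0652, edgeR) and did not pass the test. It passed without vehicle replicate 3 (-0.53; adjusted p = 0.0184), with upper quartile scaling (-0.53; 0.0146) and with library size only (-0.62; 0.00624). With a block by replicate number it also passed, at -0.39 (adjusted p = 0.0254, edgeR).

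Of the glycine cleavage system, 3 genes were tested, of which 1 fell and 0 rose. GCSH, its lipoate-bearing protein, fell from 15.7 ± 1.82 to 5.13 ± 0.35 CPM (log2 fold change -1.62, adjusted p = 1.07e-05, edgeR). GLDC, the decarboxylase, was at -0.19 and DLD at 0.43 on the log2 scale, without passing. Without vehicle replicate 3, DLD passed (0.63; adjusted p = 0.00868, edgeR), which made 1 rise. DLD also passed with a block by replicate number, at 0.45 (adjusted p = 0.00312, edgeR), which again made 1 rise.

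The list for the methionine cycle and transsulfuration, where folate carbon goes on to methyl groups, gave 1 rise and 1 fall among 11 tested. MTR, the methionine synthase, was at -0.45 (log2; adjusted p = 0.0255, edgeR). The rise was that of AHCYL1, an AHCY-like gene and not AHCY itself, at 0.44 (adjusted p = 0.0321, edgeR). Neither call was firm: MTR did not pass without vehicle replicate 1 or 2 or any ITC replicate (adjusted p = 0.0524 to 0.106), and AHCYL1 did not pass without vehicle replicate 2 or 3 or ITC replicate 2 or 3 (0.0503 to 0.155). The list then held 0 rises or 0 falls, or 2 rises without ITC replicate 1. With a block by replicate number it held 2 rises. MAT2A and AHCY, the most abundant of the uncalled genes, were at -0.09 and -0.19.

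Purine synthesis, which takes up formyl groups from folate, gave 0 rises and 3 falls among 11 tested genes. PAICS fell from 224 ± 20.4 to 114 ± 3.96 CPM (log2 fold change -0.98, adjusted p = 0.000121, edgeR) and PPAT, the committed step, from 25.7 ± 1.26 to 13.1 ± 1.73 CPM. PRPS1 was called at -0.46, a call lost without vehicle replicate 1 (adjusted p = 0.065) or ITC replicate 2 (0.116). GART and IMPDH2 were at -0.04 and -0.30 on the log2 scale and did not pass. IMPDH2 passed with upper quartile scaling (-0.44; adjusted p = 0.0370, edgeR), with library size only (-0.53; 0.0131) and with a block by replicate number (-0.30; 0.0313). With library size only, 6 of the 11 were called lower. With a block by replicate number, and with limma on log2(FPKM + 1), 1 of the 11 was called higher.

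Genes that use or carry serine and glycine went both ways, 7 up and 4 down among 18 tested, with a median of -0.10. The neutral amino acid exchanger SLC1A4, which carries serine, rose from 19.4 ± 5.81 to 42.3 ± 6.84 CPM (log2 fold change 1.13, adjusted p = 0.000709, edgeR). SERINC2 and SERINC3, of a family named for serine incorporation into membrane lipids, rose by 1.01 and 0.76 on the log2 scale. SFXN2, of the sideroflexin family of mitochondrial carriers, fell from 5.26 ± 1.02 to 1.57 ± 0.36 CPM. SERINC1 and SPTLC1, the latter a subunit of serine palmitoyltransferase, were at -0.21 and -0.08 and did not pass.

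From the same list, 3 more genes were picked after their values were seen. The amino acid transporters SLC38A2 and SLC1A5 rose by 0.87 and 0.64 on the log2 scale, and SRR, the racemase that turns L-serine into D-serine, fell from 16.5 ± 0.75 to 10.6 ± 1.13 CPM (log2 fold change -0.64, adjusted p = 0.00944, edgeR). Leaving out vehicle replicate 2 left 4 rises and 2 falls in the list and ended the call of SLC1A5 (adjusted p = 0.0644), as did leaving out ITC replicate 1 (0.0615). Leaving out ITC replicate 2 left 1 fall and ended that of SRR (0.0704). With library size only, 4 rose.

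**Figure D4:**
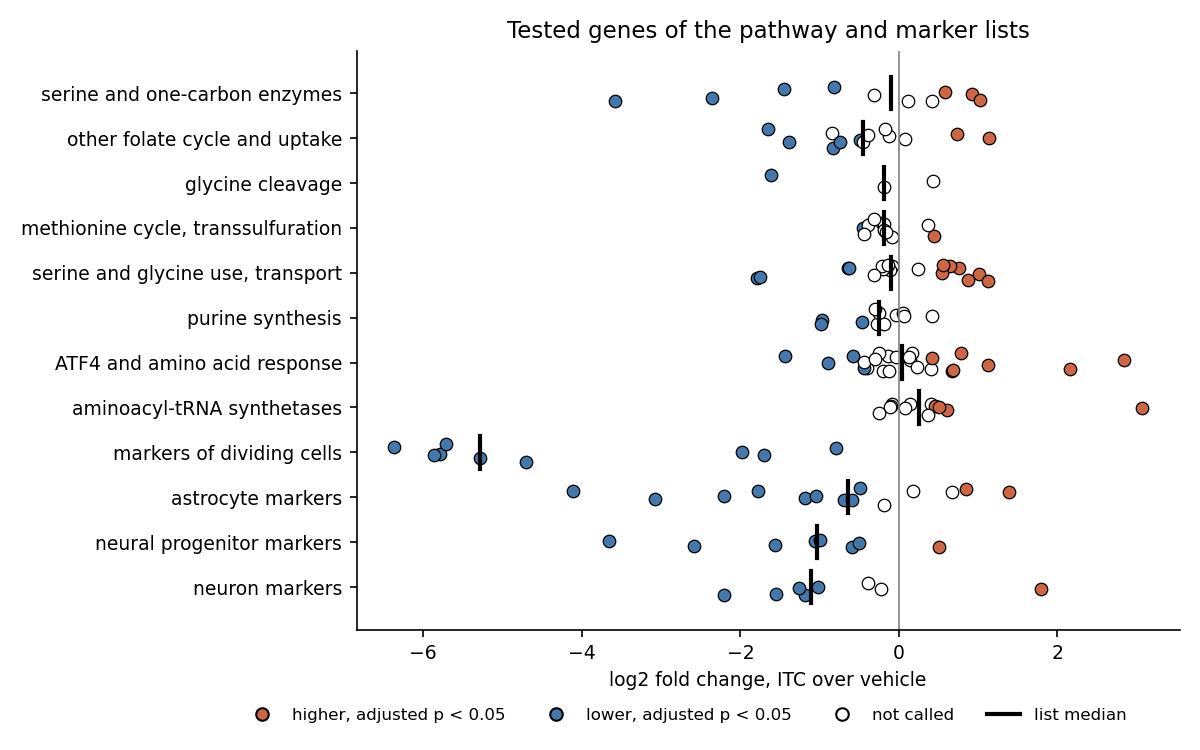
Log2 fold change of ITC over vehicle (x axis) of every tested gene in the enzyme, pathway and marker lists, orange where called higher, blue where called lower and white where not called, with a black bar at each list's median. The enzymes span -3.58 to 1.02 with a median of -0.10, the other folate genes have a median of -0.45, and the markers of dividing cells have a median of -5.28.

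Markers of other states and cell types moved with the treatment as well. All 9 markers of dividing cells fell, with a median log2 fold change of -5.28 and a summed level of 639 to 675 CPM in vehicle and 93.3 to 105 CPM in ITC. TOP2A went from 201 ± 17.5 to 3.62 ± 1.28 CPM. TYMS and the purine genes are also used by dividing cells. Of the 14 astrocyte markers, 9 fell and 2 rose, with a median log2 fold change of -0.64. Their summed level was 2422 to 2990 CPM in vehicle and 2547 to 3212 CPM in ITC, of which the 2 that rose hold a growing part: SOX9 went from 611 ± 157 to 1099 ± 210 CPM and GLUL from 349 ± 33.9 to 911 ± 91.9 CPM. AQP4, chosen after its value was seen, fell from 166 ± 19.4 to 19.7 ± 2.94 CPM. None of the 14 was at 0 in either group, and most were lower in ITC.

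Of 8 tested neuron markers, 5 fell and 1 rose, with a median log2 fold change of -1.11. The 1 that rose, GAP43, went from 335 ± 27.5 to 1161 ± 119 CPM and holds most of the list's summed level in ITC (1184 to 1386 CPM in vehicle, 1356 to 1570 CPM in ITC), whereas MAP2 fell from 700 ± 88.3 to 238 ± 36.8 CPM. Of 8 neural progenitor markers, 7 fell and 1, VIM, rose (3143 to 3896 and 3160 to 3859 CPM). VIM did not pass without vehicle replicate 2 or 3 or ITC replicate 1 or 2 (adjusted p = 0.0544 to 0.133, edgeR), which left 0 rises. Leaving out 1 library at a time left 5 to 7 falls. NES, at -0.59 on the log2 scale, did not pass without vehicle replicate 1 or 2 or ITC replicate 2 or 3 (adjusted p = 0.0551 to 0.105, edgeR). Of 6 tested oligodendrocyte lineage markers, 3 fell and 3 rose, with summed levels of 299 to 363 CPM in vehicle and 90.7 to 102 CPM in ITC. Of 7 mesenchymal markers, 3 fell and 1 rose (555 to 629 and 469 to 570 CPM). Microglia markers summed to 0.603 to 0.891 CPM in vehicle and 1.72 to 2.83 CPM in ITC. The 1 that passed the filter, ITGAM, rose from 0.142 ± 0.123 to 1.47 ± 0.262 CPM (log2 fold change 3.26, adjusted p = 0.00124, edgeR), CSF1R went from 0.214 ± 0.0313 to 0.827 ± 0.34 CPM without being tested, and AIF1 was at 0 in all ITC libraries. Endothelial markers summed to at most 1.36 CPM. The part of dividing cells, neurons, progenitors or other cells in the levels of the serine and folate enzymes was not tested.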

How the data were processed

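RNA was prepared with a column kit and DNase, and poly-A selected libraries were made with NEB chemistry by a service company, per the labels' protocols. Groups come from the sample titles. The authors deposited whole-number read counts per gene, raw per the file headers, with FPKM, DESeq2 log2 fold changes and p-values. The FPKM values use the listed gene length, which equals the union of exon bases in GENCODE 29 for all 10 enzymes. The library size they imply was 102% to 108% of the total count in vehicle and 84.3% to 93.8% in ITC, so it was not the plain total. GRCh38, also called hg38, and DESeq2 appear in the submitters' processing notes, with no version. The aligner and counter are not given in the sources used. All sample columns were mapped, and 0 lines name no gene.

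Counts were tested over the whole table with edgeR 4.0.16 in R 4.3.3 (filterByExpr, TMM scaling, quasi-likelihood test, no covariate, Benjamini-Hochberg adjustment over 16756 genes, threshold 0.05). P-values measure the spread between these 3 and 3 libraries only. TMM factors were 1.07 to 1.10 in vehicle and 0.886 to 0.953 in ITC. Ratios within a library used counts plus 0.5 and exact permutation tests in scipy 1.17.1 under Python 3.11.15. Figures used matplotlib 3.10.9. The alternatives were other scalings and filters, a block by replicate number, each library left out in turn, DESeq2 1.42.0, limma 3.58.1 on counts and on log2(FPKM + 1) and log2(FPKM + 0.1), and a threshold of 0.01. The pipeline was tested on simulated data.

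The members and the lists were chosen with earlier results of these data known. Named genes are the 10 members and, from each of the 7 pathway lists, the called genes of smallest p (at most 4) and the uncalled genes of highest CPM (at most 2). From each marker list the rule takes the 2 with the highest CPM, of which those printed are a part. A few genes it selects are not reported here. Others are said to be chosen after their values were seen. Lists are described by counts and medians, without a list test.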

Additional observations from a re-analysis of the deposited data

How the results depend on the processing

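PHGDH, PSAT1, PSPH, ALDH1L1, MTHFD1L and MTHFD2 kept their direction and call under all 17 alternatives. Scaling by library size only gave 4804 genes lower, and a threshold of 0.01 gave 2082. Leaving out 1 library at a time gave 2 to 4 enzymes higher and 4 to 5 lower, and 2470 to 3420 genes higher and 2480 to 3597 lower over the table. ALDH1L2 turned to -0.022 with upper quartile scaling and to -0.10 with library size only, and COL1A1 to -0.067 with library size only. Without single libraries ALDH1L2 ranged from -0.10 to 0.29, EPRS from -0.23 to 0.038, XPOT from -0.23 to 0.027 and GART from -0.11 to 0.036. The cause was not tested.

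The deviations of same-numbered libraries from their group means correlated at 0.27, 0.0073 and 0.38, and vehicle replicate 2 correlated best with ITC replicate 1 (0.07), so the numbers were not taken to pair the libraries. For replicates 1 and 3 the same-numbered library was the best match, a hint of shared batches that no label states. The replicate block gave 4332 genes higher and 4084 lower, and 4 enzymes higher and 4 lower, with SHMT2 passing (adjusted p = 0.00595, edgeR). Under the block the log2 ratio differences keep their values and the smallest exact p is 0.25. With 3 libraries a group, precision is limited most for the thinly counted ALDH1L1 and ALDH1L2.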

Other observations

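Genes of the amino acid response, many of them targets of the transcription factor ATF4 in other settings, went both ways. Of 24 tested, 7 rose and 4 fell, with a median log2 fold change of 0.04 against -0.01 for all genes. The transcription factor CEBPB rose from 26.4 ± 2.43 to 189 ± 43.6 CPM (SD, n = 3; adjusted p = 2.46e-08, edgeR), the secreted glycoprotein STC2 from 50.03 ± 9.76 to 224 ± 10.02 CPM and SESN2 from 45.7 ± 6.17 to 99.2 ± 18.7 CPM. SLC7A11, the cystine importer, fell from 77.0 ± 4.07 to 28.5 ± 11.9 CPM. ATF4 itself was at -0.14 on the log2 scale and the tRNA exporter XPOT at -0.12, neither passing. With library size only, 4 rose and 7 fell.

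Of 12 cytosolic aminoacyl-tRNA synthetases tested, 4 rose and 0 fell, with a median of 0.26. WARS, the tryptophanyl enzyme, rose from 41.1 ± 6.17 to 345 ± 74.3 CPM (log2 fold change 3.07, adjusted p = 1.8e-08, edgeR). CARS was at 0.60, MARS at 0.46 and YARS at 0.50 on the log2 scale. These smaller calls depended on single libraries, since without vehicle replicate 2 WARS was the only synthetase called, and without ITC replicate 1 or 2 only 2 were. With library size only, 2 rose and 1 fell. NARS and EPRS were at -0.24 and -0.10 and did not pass. The summed level of the 12 was 1310 to 1458 CPM in vehicle and 1768 to 1908 CPM in ITC.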
